A study of Homo sapiens with 6 samples.

Results

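HOX genes encode homeodomain transcription factors that give cells their position along the head-to-tail axis and along the limbs. In mammals they lie in 4 clusters, HOXA, HOXB, HOXC and HOXD, and genes at the same place in different clusters form 13 paralogue groups, numbered from the 3′ end, which acts towards the head, to the 5′ end, which acts towards the tail and the tips of the limbs. All protein-coding genes of the deposited count table whose name is HOX, a cluster letter and a paralogue number were taken, which gave 38 of 22481 genes (of which 16114 are protein-coding): 11 HOXA, 9 HOXB, 9 HOXC and 9 HOXD genes. HOXB1 was not analysed here. Adult mesenchymal cells usually keep a HOX pattern that records where in the body they arose. That pattern is held by Polycomb complexes, which keep silent genes silent, and by KMT2A complexes, which keep active genes active, and HOX proteins bind DNA with PBX and MEIS partners.

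The cells were 143B, an established human osteosarcoma line, in 1 plate of 6 wells. After 24 h of growth celastrol, a triterpenoid of Tripterygium wilfordii, was added to 3 wells for a further 24 h, and 3 control wells were grown for the same time. No dose is in the labels, nor whether a vehicle went into the control wells. The poly(A) RNA of each well made 1 library, so the p-values measure the spread between wells of 1 plate, which may be technical.

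The 6 libraries held 38.4 to 39.5 M counts, at which 3 counts, the limit that a count of 0 allows, correspond to 0.0747 to 0.0790 CPM (counts per 1 M counts of the library, scaled by TMM). Celastrol and control libraries lay apart on the first principal component (62.6% of the variance), with celastrol replicate 2 and control replicate 1 nearest to the other group. Of 9 mesenchymal and osteoblast markers, VIM and SPARC were abundant, RUNX2 had 684 to 753 counts with celastrol and 1175 to 1366 in controls, and COL1A2 had at most 2 counts. The summed level of the 9 was 2944 to 3014 CPM with celastrol and 3771 to 3987 CPM in controls, most of it VIM (2541 ± 44.7 CPM with celastrol and 3411 ± 142 in controls). Of the 8 markers of this list that were tested, 5 fell, 1 rose and 2 were not called, while 24.8% of all genes fell and 23.6% rose. Those that fell were VIM (log2 fold change -0.42), TWIST1 (-0.55), COL5A1 (-0.89), RUNX2 (-0.90) and ALPL (-1.18). COL1A1 rose (log2 fold change 0.66, adjusted p = 0.00209). PDGFRB was not called, nor was SPARC (365 ± 13.5 CPM with celastrol and 364 ± 55.9 in controls). Among 5 epithelial markers with a row, KRT18 was abundant (948 ± 42.6 CPM with celastrol and 962 ± 10.8 in controls), EPCAM had 268 to 282 counts with celastrol and 217 to 250 in controls, CLDN4 had 13 to 16 counts with celastrol and 26 to 55 in controls and fell (log2 -1.57, adjusted p = 0.0137), and CDH1 and KRT19 had at most 2 counts in any library. Of 2 leukocyte markers with a row, PTPRC had at most 6 counts, and CD68, a lysosomal protein of macrophages and other cells, had 5633 to 6500 counts with celastrol and 7345 to 7950 in controls and fell (log2 -0.39, adjusted p = 0.000134). The endothelial markers summed to 0.406 to 0.759 CPM with celastrol and 1.30 to 1.71 CPM in controls. The part of these differences in the HOX results was not tested, and in RNA from whole wells fewer cells of a kind and less RNA per cell cannot be told apart.

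Promoters of 4 HOX genes are shown first, since later paragraphs return to them. HOXA6, HOXA7 and HOXD1 changed at least 2-fold, and HOXC4 fell 1.36-fold. The windows are the 250 bases before the RefSeq start on GRCh38.p14, written 5′ to 3′ on the gene's own strand. RefSeq windows were found for 19 of the 38 genes, and HOXC6, which rose 3.41-fold, is named only. Its RefSeq gene starts at the same base as HOXC4 and HOXC5, which share the window printed. HOXA6 is at chr7:27147775-27148024 (minus strand), HOXA7 at chr7:27156676-27156925 (minus strand), HOXC4 at chr12:54016638-54016887 (plus strand) and HOXD1 at chr2:176188418-176188667 (plus strand). Capitals mark matches to any of 5 short motifs, searched on both strands: TATAAA (the TATA box), CCAAT (the NF-Y box, ATTGG on the other strand), TGATTNAT (a PBX-HOX site), GAANNTTC (a heat shock element core) and TGACNNNGC (an antioxidant response element core).
HOXA6: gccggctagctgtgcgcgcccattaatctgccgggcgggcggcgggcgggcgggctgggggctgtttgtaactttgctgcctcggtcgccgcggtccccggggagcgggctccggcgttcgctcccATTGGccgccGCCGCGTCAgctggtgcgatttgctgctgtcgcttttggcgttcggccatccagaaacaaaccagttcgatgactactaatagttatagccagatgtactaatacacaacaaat
HOXA7: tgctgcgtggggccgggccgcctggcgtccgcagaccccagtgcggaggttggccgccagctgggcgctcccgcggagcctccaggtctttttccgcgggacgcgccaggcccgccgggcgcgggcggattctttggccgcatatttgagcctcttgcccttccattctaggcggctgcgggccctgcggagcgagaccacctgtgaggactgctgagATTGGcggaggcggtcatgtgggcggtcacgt
HOXC4: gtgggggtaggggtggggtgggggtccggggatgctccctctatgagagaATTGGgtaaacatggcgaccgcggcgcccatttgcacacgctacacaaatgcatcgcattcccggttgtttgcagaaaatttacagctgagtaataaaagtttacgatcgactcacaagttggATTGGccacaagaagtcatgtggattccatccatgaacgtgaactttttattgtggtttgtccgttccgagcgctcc
HOXD1: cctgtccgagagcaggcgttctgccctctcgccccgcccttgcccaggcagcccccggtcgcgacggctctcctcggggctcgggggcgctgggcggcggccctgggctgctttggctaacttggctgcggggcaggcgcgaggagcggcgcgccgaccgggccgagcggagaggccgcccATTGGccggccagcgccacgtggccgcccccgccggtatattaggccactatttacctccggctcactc
No 2 matches in these windows overlapped. CCAAT matched at 124 bases before the start in HOXA6, at 32 in HOXA7, at 200 and 77 in HOXC4, and at 69 in HOXD1, each time as ATTGG. TGACNNNGC matched only in HOXA6 among these 4 windows, at 114 bases before the start on the opposite strand. In the 34941 distinct windows of all genes, CCAAT was held by 32.0%, TGACNNNGC by 10.9%, TATAAA by 10.8%, GAANNTTC by 5.80%, and TGATTNAT by 2.49%. In the 25 distinct windows of the 19 HOX genes, CCAAT was held by 16, TATAAA by 5, TGACNNNGC by 3, TGATTNAT by 2 and GAANNTTC by 1. A match describes letters in these windows and is not a measured binding site. The windows also differed in base composition, with 62.0% G and C in HOXA6, 70.8% in HOXA7, 50.8% in HOXC4 and 74.8% in HOXD1.

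The cells carried RNA of nearly the whole HOX complement, from paralogue group 1 to paralogue group 13, and their levels did not run in the order of paralogue number. On the FPKM scale, which divides counts by gene length and library size, 32 of 38 genes reached a mean of 1 FPKM with celastrol and 33 did in controls. All 9 HOXB genes reached 1 FPKM in both groups, as did 8 of 9 HOXC genes. Of 9 HOXD genes, 5 reached 1 FPKM with celastrol and 7 in controls. The 7 genes at 10 FPKM or more were 5 HOXB and 2 HOXC genes in each group, with HOXC6 (12.9 ± 0.877 FPKM with celastrol and 3.68 ± 0.777 in controls, SD, n = 3 each) in the celastrol set and HOXC4 (9.04 ± 0.404 with celastrol and 11.9 ± 1.70 in controls) in the control set. That set rests on the deposited gene lengths. Per GENCODE exon length, 8 genes reached 10 counts per kilobase and 1 M counts with celastrol (HOXA11, HOXB2, HOXB6 to HOXB9, HOXC10 and HOXD4) and 6 did in controls (HOXB2, HOXB4, HOXB9, HOXC4, HOXC10 and HOXD4). HOXB4 then lay at 9.76 ± 0.137 with celastrol and 12.7 ± 1.56 in controls. Across the 38 genes, Spearman's rho between mean FPKM and paralogue number was -0.0872 with celastrol and -0.0928 in controls. Within single clusters it differed in sign, from -0.35 (HOXC) to 0.264 (HOXA) with celastrol and from -0.167 (HOXC) to 0.1 (HOXD) in controls. These values use the deposited lengths and describe neighbouring genes measured in the same libraries.

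**Figure D1:**
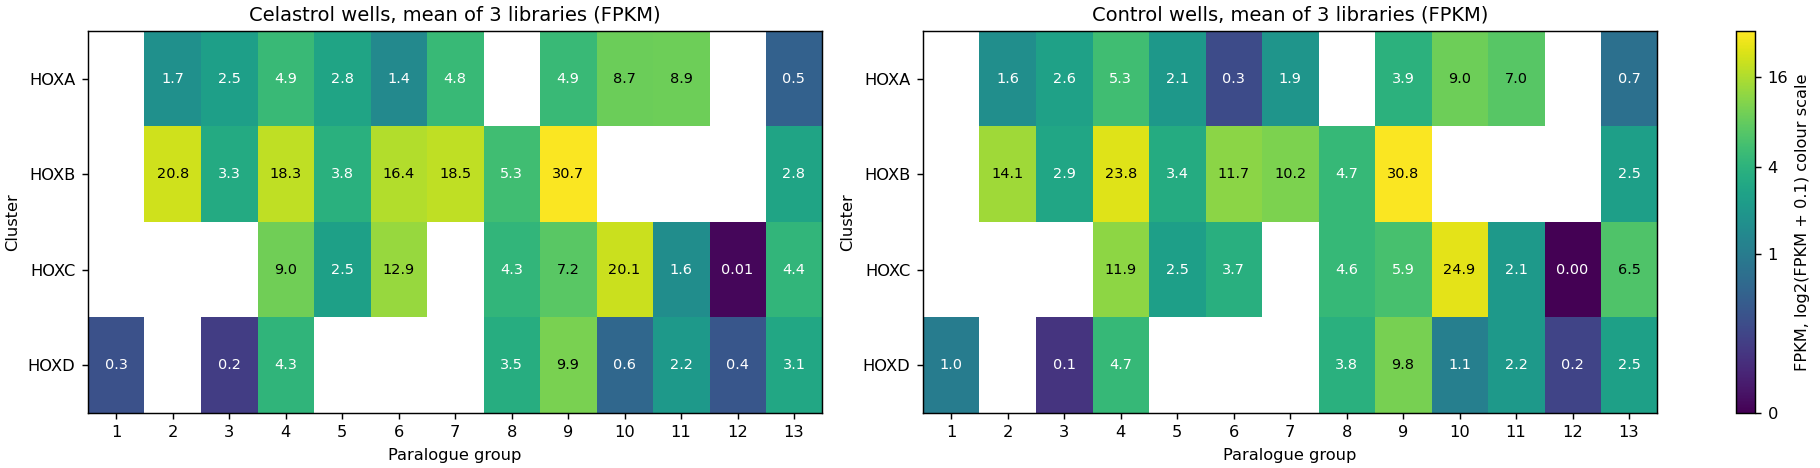
Mean FPKM of 37 HOX genes over 3 celastrol libraries (left) and 3 control libraries (right), by cluster (rows) and paralogue group (columns), with colour on a log2 scale and white where no gene is shown. HOXB9 is the brightest cell in both maps (30.7 and 30.8 FPKM), and HOXC6 is brighter with celastrol (12.9 against 3.68 FPKM).

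HOXB9, which patterns ribs and sternum in mice, stood at the top of the order in both groups. It measured 31.8, 28.7 and 31.5 FPKM with celastrol and 29.9, 30.0 and 32.6 FPKM in controls, and within either group no other gene's values reached its range. Below it, most neighbours in the order could not be told apart: the ranges of the 3 libraries overlapped for 25 of 37 neighbouring pairs with celastrol and for 27 of 37 in controls. HOXB2, HOXC10, HOXB7 and HOXB4 followed HOXB9 with celastrol, at 20.8 ± 0.413, 20.1 ± 1.38, 18.5 ± 0.399 and 18.3 ± 0.257 FPKM. In controls HOXC10 (24.9 ± 3.99 FPKM), a gene of lumbar and hindlimb identity, and HOXB4 (23.8 ± 2.93 FPKM), known for its effect on blood stem cells, came next and overlapped each other. The low end held HOXA13, HOXD10, HOXD12, HOXD1, HOXD3 and HOXC12 with celastrol, and HOXA13, HOXA6, HOXD12, HOXD3 and HOXC12 in controls, all under 1 FPKM. HOXC12 had 0, 4 and 0 counts with celastrol and 0 in each control library, which in a control allows up to 3 counts, and it was the only member that did not pass the filter on low counts.

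HOXB genes held 47.6 ± 0.657% of the summed HOX FPKM with celastrol and 44.9 ± 3.78% in controls. HOXC held 24.7 ± 0.688% with celastrol and 26.8 ± 2.96% in controls, HOXA 18.1 ± 0.204% and 17.3 ± 1.56%, and HOXD 9.68 ± 0.253% and 11.0 ± 0.337%. The HOXD shares did not overlap between groups, at 9.91, 9.73 and 9.41% with celastrol and 11.1, 10.6 and 11.2% in controls, while those of the other clusters did. The summed HOXD FPKM itself overlapped, at 25.0, 24.2 and 24.0 with celastrol and 26.1, 24.0 and 26.0 in controls. The sum over all HOX genes, by which the share is divided, was 252, 249 and 255 FPKM with celastrol. In controls that sum was 235, 227 and 233 FPKM. By position, groups 1 to 3 held 13.2 ± 0.210% with celastrol and 12.1 ± 0.461% in controls, groups 4 to 8 held 44.8 ± 0.795% and 40.8 ± 2.67%, and groups 9 to 13 held 42.0 ± 1.0% and 47.2 ± 3.10%. The direction for the 3′ genes turned with the class limits: groups 1 to 4 held 27.7 ± 0.397% with celastrol and 31.8 ± 0.958% in controls. These shares are descriptions with no test. They depend on gene length: the lengths behind the deposited FPKM of HOXB3 (18337 bases), HOXD13 (6442) and HOXD4 (5144) are far longer than the merged exons of GENCODE release 29 (7456, 2240 and 1464 bases), as are those of HOXB8 (4130 against 2051) and HOXD12 (2549 against 1346), whereas that of HOXB4 is shorter (2002 against 3757). With the GENCODE lengths the HOXD share was 16.6% with celastrol and 18.1% in controls, and the HOXA share 16.7% and 16.0%, so that HOXD was no longer the lowest in controls. At these lengths HOXD4 lay at 13.9 to 16.1 counts per kilobase and 1 M counts with celastrol and 15.3 to 18.0 in controls.

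The control wells differed among themselves along the clusters. HOXB genes summed to 119, 120 and 120 FPKM with celastrol and to 116, 98.7 and 97.9 FPKM in control replicates 1, 2 and 3. Control replicate 1 was the highest of the 3 controls in 7 of 9 HOXB genes and the lowest in 5 of 8 tested HOXC genes, and control replicate 3 was the highest in 6 of 8 HOXC genes. Several HOXB and HOXC comparisons below therefore rest on controls that lie far apart. Control replicate 1 was the control nearest to the celastrol wells in HOXB2, HOXB6, HOXB7, HOXC4, HOXC6, HOXC10, HOXC11 and HOXC13, but the farthest from them in HOXB4.

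Celastrol and control wells were then compared gene by gene. Of the 37 HOX genes tested, 7 rose with celastrol (18.9%) and 9 fell (24.3%) at an adjusted p under 0.05 in edgeR's quasi-likelihood test, against 23.6% higher and 24.8% lower among all 15387 genes. The groups did not overlap in 18 of 37 HOX genes (48.6%), against 56.9% of all genes, so the share of HOX genes that changed was no higher than that of genes at large. With a stricter filter, at least 10 CPM in 3 libraries, 19 HOX genes were tested, of which 5 rose and 5 fell, against 28% higher and 29.7% lower among all 10023 genes tested. The number that fell was 5 (13.5%) without celastrol replicate 1 and 5 (13.5%) without control replicate 3, against 20.4% and 21.2% of all genes in the same fits. The median log2 fold change was -0.020 for HOX genes and -0.00024 for all genes, and the median absolute change was 0.29 and 0.33. HOXA6, HOXA7 and HOXC6 were called and at least 2-fold higher (3.28% of all genes were), and HOXD1 was called and at least 2-fold lower (6.05% of all genes were). By cluster, 3 genes rose and 1 fell of 9 HOXB genes, and 1 rose and 4 fell of 8 HOXC genes. Of 9 HOXD genes 2 fell and none rose, and none was higher at an unadjusted p under 0.05 in edgeR, or called higher by DESeq2, limma-voom or limma on FPKM.

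By position, 5 of the 7 genes that rose were those of paralogue groups 6 and 7, and the others were HOXB2 and HOXA11. All 5 genes of groups 6 and 7 rose, whereas 1 rose and 4 fell of 14 genes in groups 1 to 5, and 1 rose and 5 fell of 18 in groups 8 to 13. Outside groups 6 and 7, only groups 2 and 11 held a gene that rose. Of all genes, 23.6% rose and 24.8% fell. The grouping was chosen after the values were seen, so it is a description of these wells and has no test. All 5 genes kept their call in every single-library omission, but these fits reuse the libraries from which the grouping was chosen and so cannot test it.

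**Figure D2:**
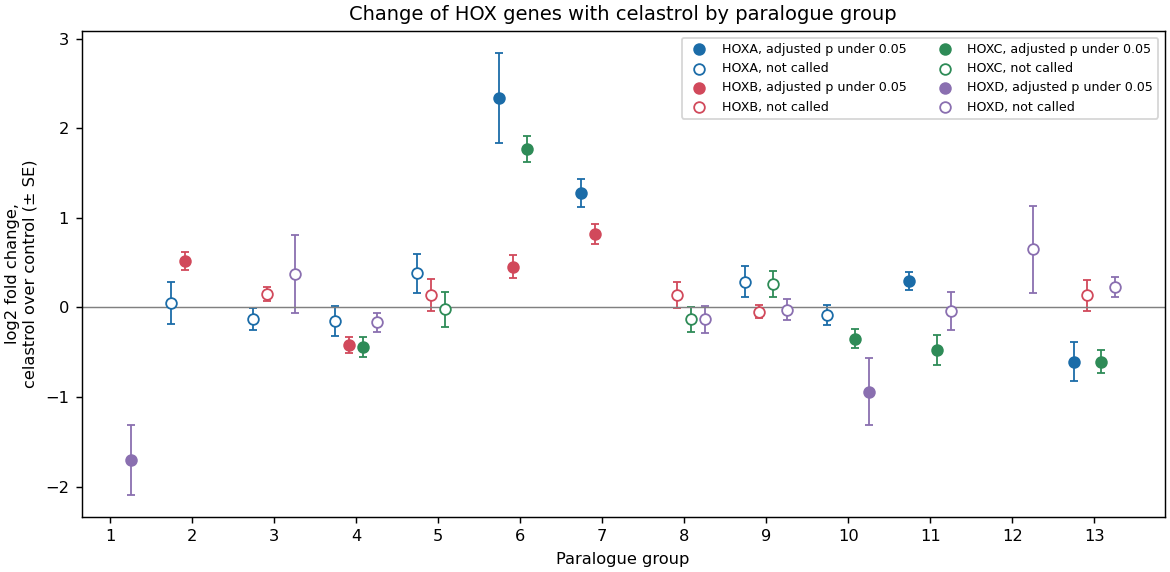
The log2 fold change of 36 of the 37 tested HOX genes, celastrol over control, with its standard error, by paralogue group, coloured by cluster and filled where the adjusted p was under 0.05. The 5 genes of groups 6 and 7 lie above 0, HOXD1 lies lowest, and groups 3, 5, 8 and 9 hold open circles only.

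HOXC6, a gene of thoracic identity on chr12 (chr12:54016888-54030823), had the smallest adjusted p of the HOX genes. Its libraries held 28.1, 25.6 and 29.5 CPM with celastrol, against 9.59, 6.24 and 8.57 CPM in controls. Every celastrol well lay above every control well by more than the spread within either group, and HOXC6 rose 3.41-fold (log2 fold change 1.77 ± 0.14, SE, as in all log2 values below, adjusted p = 3.04e-08). Its neighbours on the shared transcription unit did not follow. HOXC5 had 3.51, 4.35 and 4.26 CPM with celastrol and 3.74, 4.21 and 4.34 CPM in controls (log2 -0.020 ± 0.20, adjusted p = 0.945). HOXC4 had 20.1, 21.9 and 20.9 CPM with celastrol and 24.1, 28.9 and 32.6 CPM in controls, and its level fell (log2 -0.45 ± 0.11, adjusted p = 0.00311). Thus, of 3 genes whose RefSeq extent starts at the same base, HOXC6 was higher with celastrol, HOXC4 was lower and HOXC5 overlapped between groups. From which start the reads of each gene came was not tested, nor whether the window printed above was in use. Parts of their exons coincide on the same strand (15.7% of HOXC6, 17.8% of HOXC4 and 43.4% of HOXC5 bases shared with another gene in GENCODE), so reads there could be counted for more than 1 of them.

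HOXA6 and HOXA7, the HOXA genes of groups 6 and 7, lie next to each other at chr7:27145396-27147774 and chr7:27153716-27156675. HOXA6 was nearly silent in controls, with 13, 13 and 5 counts, and had 52, 61 and 51 counts with celastrol. That is 1.29, 1.54 and 1.29 CPM with celastrol and 0.338, 0.342 and 0.130 CPM in controls, without overlap, and HOXA6 rose 5.06-fold (log2 2.34 ± 0.50, adjusted p = 0.000835), the largest fold of the 37 genes. HOXA7 had 8.94, 9.39 and 10.1 CPM with celastrol and 4.11, 3.82 and 3.82 CPM in controls. Its groups stood well apart, and it rose 2.42-fold (log2 1.28 ± 0.16, adjusted p = 4.00e-06). An antisense RNA, HOXA-AS3, lies opposite 39.3% of HOXA6 and 62.5% of HOXA7 exon bases, and it had only 3 to 10 counts in any library. Their flanking genes HOXA5 and HOXA9 were not called (log2 0.38 ± 0.22, adjusted p = 0.157, and 0.28 ± 0.17, adjusted p = 0.185), and HOXA9 passed only without celastrol replicate 2 (adjusted p = 0.0281, and 0.0327 without control replicate 1 as well).

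HOXB7 and HOXB6, neighbours on chr17, stood at a higher level than HOXA6 and HOXA7 and rose by less. HOXB7 (chr17:48607232-48611017) had 24.2, 24.9 and 25.5 CPM with celastrol and 16.0, 13.5 and 12.8 CPM in controls. It rose 1.76-fold with no overlap (log2 0.82 ± 0.11, adjusted p = 1.15e-05). HOXB6 (chr17:48595751-48604986) had 34.9, 38.1 and 35.1 CPM with celastrol and 33.1, 22.1 and 23.7 CPM in controls. Here control replicate 1 lay close to the celastrol wells and the other controls far below, and HOXB6 rose 1.37-fold (log2 0.45 ± 0.13, adjusted p = 0.00680). HOXB6 shares 16.6% of its exon bases with HOXB3 on the same strand and 16.3% with the antisense HOXB-AS3, which had 1 to 10 counts per library.

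**Figure D3:**
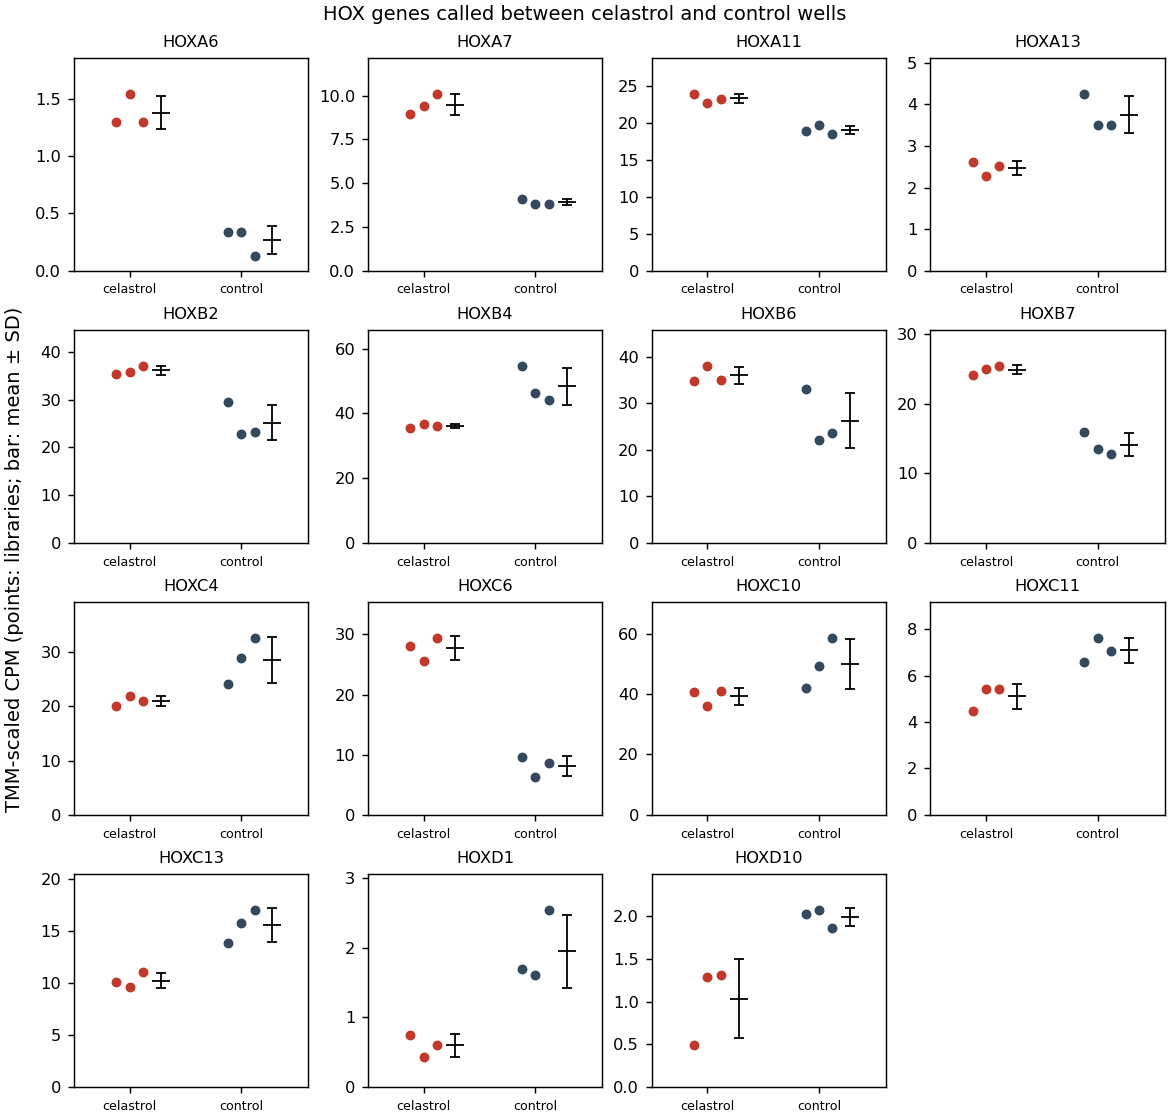
TMM-scaled CPM of 15 HOX genes with an adjusted p under 0.05 in each library (points), with mean ± SD (bars), celastrol left and control right, each panel on its own axis from 0. The groups do not overlap in any panel, and HOXC6 (25.6 to 29.5 against 6.24 to 9.59 CPM), HOXA7 and HOXA6 are far higher with celastrol.

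Towards the 3′ ends of the clusters, HOXD1 (chr2:176188668-176190907) was low and fell furthest of the HOX genes, with 30, 17 and 24 counts with celastrol and 65, 61 and 98 counts in controls. At 0.747, 0.430 and 0.609 CPM with celastrol and 1.69, 1.61 and 2.55 CPM in controls, every celastrol well was below every control well, and HOXD1 was 3.26-fold lower (log2 -1.70 ± 0.39, adjusted p = 0.00141). The RNA on the other strand of 58.1% of HOXD1 exon bases includes HAGLR, which had 300 to 330 counts with celastrol and 369 to 400 in controls. Counts of HOXD1 are uncertain to that extent, because no source used here states whether counting used the strand.

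In group 2, HOXB2, a hindbrain gene, rose to 35.4, 35.7 and 37.1 CPM with celastrol, against 29.4, 22.7 and 23.3 CPM in controls. All celastrol wells were above all controls, and the change was log2 0.52 ± 0.10 (adjusted p = 0.000451). HOXA2, which patterns the branchial arches, had 2.87 ± 0.468 CPM with celastrol and 2.77 ± 0.215 in controls and was not called. In group 4, HOXB4 had 35.6, 36.7 and 36.1 CPM with celastrol and 54.8, 46.2 and 44.0 CPM in controls. The celastrol wells were tightly grouped below all controls, and HOXB4 fell (log2 -0.42 ± 0.091, adjusted p = 0.000953), with 17.1% of its exon bases shared with other genes on its strand. Thus HOXB4 fell while HOXB2, HOXB6 and HOXB7 of the same cluster rose. HOXA4 and HOXD4 were not called (log2 -0.15 ± 0.17, adjusted p = 0.481, and -0.17 ± 0.10, adjusted p = 0.195). Other GENCODE genes on the same strand share 80.5% of HOXD4, 62.2% of HOXD3 and 31.0% of HOXA4 exon bases, so their levels and changes are uncertain to an extent that was not measured.

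The 5′ ends of the clusters pattern the distal limb and the tail. Of 11 genes tested in groups 10 to 13, 5 fell (45.5%) and 1 rose (9.09%), against 24.8% and 23.6% of all genes. This cut leaves out group 9, which the shares above counted with groups 10 to 13, and none of its 4 genes was called. With group 9 included, the percentage that fell is smaller. Of the genes called in groups 10 to 13, only HOXC13 kept its call whichever 1 library was left out. HOXC13, known for hair and nail formation, had 10.1, 9.54 and 11.0 CPM with celastrol and 13.9, 15.8 and 17.0 CPM in controls. The groups were clearly apart, and HOXC13 fell (log2 -0.61 ± 0.13, adjusted p = 0.000890). HOXA13, needed for digits and the urogenital tract, had 2.61, 2.28 and 2.51 CPM with celastrol and 4.26, 3.50 and 3.51 CPM in controls, and it fell as well (log2 -0.61 ± 0.22, adjusted p = 0.0302). That call was lost without any 1 of the celastrol replicates (adjusted p = 0.0564, 0.0844 and 0.0663 without replicates 1, 2 and 3) and without control replicate 1 (0.0955). The other members of the group, HOXB13, a prostate lineage gene (8.47 ± 1.40 CPM with celastrol and 7.71 ± 1.47 in controls), and HOXD13, a digit gene, were not called. HOXD13 was higher in each celastrol well (18.5, 20.7 and 19.2 CPM) than in any control (15.6, 18.1 and 16.1 CPM), with log2 0.23 ± 0.11 and an adjusted p of 0.0990. HOXA3, with log2 -0.13 ± 0.12 and an adjusted p of 0.406, was the other uncalled gene whose groups did not overlap.

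In groups 10 and 11, HOXC10 had 40.6, 36.0 and 41.0 CPM with celastrol and 42.0, 49.2 and 58.7 CPM in controls. Control replicate 1 was just above the celastrol wells, and HOXC10 fell (log2 -0.35 ± 0.11, adjusted p = 0.0116). The change was log2 -0.22 without control replicate 3 (adjusted p = 0.0906) and log2 -0.29 without celastrol replicate 2 (adjusted p = 0.0563). HOXC11 had 4.46, 5.44 and 5.40 CPM with celastrol and 6.57, 7.63 and 7.04 CPM in controls. It was lower in all celastrol wells and fell (log2 -0.47 ± 0.17, adjusted p = 0.0261), a call lost without celastrol replicate 1 (0.118) and without control replicate 2 (0.0951) or 3 (0.0548). HOXD10 had 20, 51 and 52 counts with celastrol and 78, 79 and 72 counts in controls. Celastrol replicate 1 lay far below the other 2 celastrol wells, and HOXD10 fell (log2 -0.94 ± 0.37, adjusted p = 0.0441). Without that library the change was log2 -0.61 (adjusted p = 0.179), and the call was also lost without control replicate 1 (0.0654), 2 (0.103) or 3 (0.0736). HOXD10 shares 16.8% of its exon bases with HOXD11.

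HOXA11, a gene of the forearm and lower leg in mice, went the other way. It had 24.0, 22.8 and 23.3 CPM with celastrol and 19.0, 19.7 and 18.6 CPM in controls, without overlap. The rise was small (log2 0.29 ± 0.10, adjusted p = 0.0221) and lost its call without celastrol replicate 1 (0.0891) or 3 (0.0667) or control replicate 3 (0.0603). HOXA11-AS lies opposite 31.1% of HOXA11 exon bases and had 76 to 106 counts with celastrol and 76 to 104 in controls. HOXA10 overlapped between groups (21.8 ± 1.47 CPM with celastrol and 23.1 ± 3.09 in controls), as did HOXD11 (3.63 ± 0.275 and 3.74 ± 0.695 CPM).

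The remaining genes tested had log2 fold changes between -0.13 and 0.65 and did not pass the test. Groups 8 and 9 held HOXB9, the most abundant gene, at 78.2 ± 4.39 CPM with celastrol and 80.9 ± 4.72 in controls (log2 -0.049 ± 0.072, adjusted p = 0.601). HOXD9 had 18.3 ± 0.321 CPM with celastrol and 18.6 ± 2.51 in controls, and HOXC9 10.5 ± 1.09 and 8.76 ± 0.811. HOXC8, HOXD8 and HOXB8 had log2 changes of -0.13 ± 0.14, -0.13 ± 0.15 and 0.14 ± 0.15. None of the genes of groups 3, 5 and 8 passed at an unadjusted p under 0.05 in edgeR or by DESeq2, limma-voom or limma on FPKM, and of group 9 limma on FPKM called 1, HOXC9. Without control replicate 1, HOXB3 and HOXB8 passed as higher (adjusted p = 0.0228 and 0.0123). Group 3 held HOXB3 at 60.2 ± 3.64 CPM with celastrol and 54.2 ± 4.27 in controls, and HOXD3 at 1.03 ± 0.338 and 0.791 ± 0.158. Group 5 also held HOXB5, at 6.94 ± 0.542 CPM with celastrol and 6.31 ± 1.45 in controls. HOXD12 was low at 0.914 ± 0.247 CPM with celastrol and 0.582 ± 0.214 in controls, and its log2 change of 0.65 had an SE of 0.49.

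Noncoding RNAs inside the clusters were counted as well. Of 13 tested, 2 were higher and 2 lower, and their share lay below the 48.4% of all genes called in either direction (23.6% higher and 24.8% lower). HOTAIRM1, from the 3′ end of the HOXA cluster, had 11.2, 12.2 and 11.7 CPM with celastrol and 22.1, 23.5 and 26.3 CPM in controls. Every celastrol well held about the same low level, and HOTAIRM1 fell (log2 -1.03 ± 0.11, adjusted p = 1.07e-06), while HOXA2 nearby was not called. HOXA10-AS had 5.95, 7.21 and 6.92 CPM with celastrol and 2.75, 1.66 and 2.91 CPM in controls, and it rose (log2 1.45 ± 0.22, adjusted p = 3.00e-05), while HOXA10, 16.4% of whose exon bases it covers, overlapped between groups. HOXC13-AS had 101, 49 and 109 counts with celastrol and 21, 4 and 27 counts in controls, and it rose (log2 2.26 ± 0.50, adjusted p = 0.00141) where HOXC13 fell. The overlap of HOXC13-AS with HOXC13 exons is 7.10% of their bases. HOXC-AS1, beside HOXC9, fell (log2 -0.85 ± 0.35, adjusted p = 0.0492), and its adjusted p was between 0.0502 and 0.211 when any 1 library was left out. The call was also lost with the replicate block (0.0680), with no filter (0.0659), with library size alone (0.0596) and with limma-voom (0.0574). HOTAIR, in the HOXC cluster, and HAGLR, beside HOXD1, were not called (log2 0.27 ± 0.30, adjusted p = 0.478, and -0.31 ± 0.14, adjusted p = 0.0737).

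**Figure D4:**
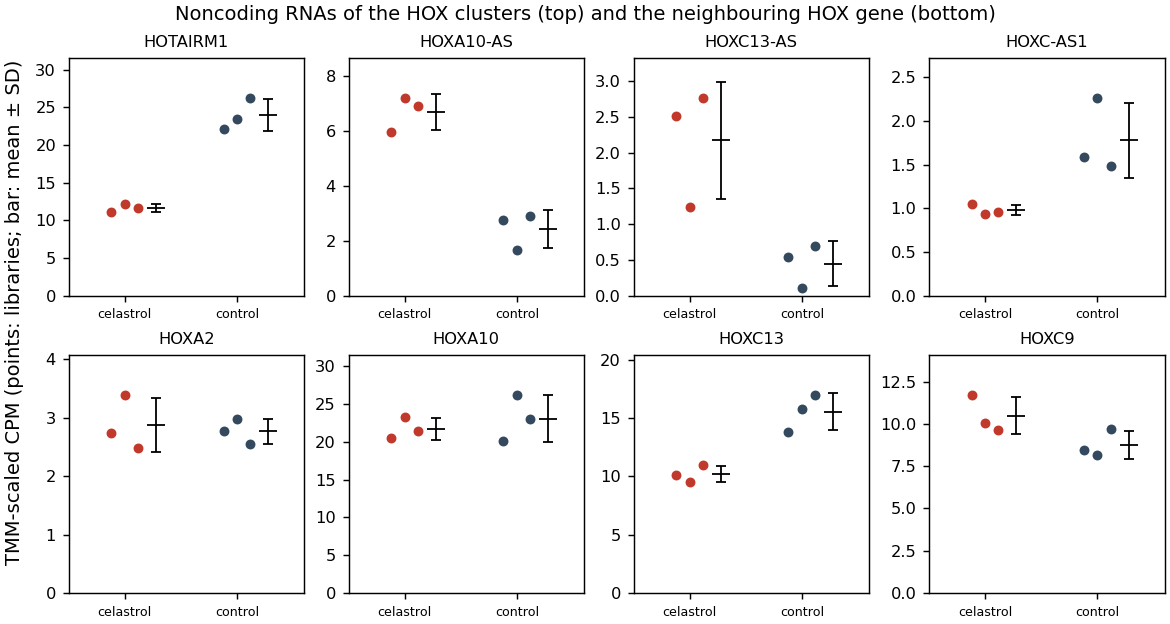
TMM-scaled CPM of 4 noncoding RNAs of the HOX clusters with an adjusted p under 0.05 (top) and of a HOX gene beside each (bottom), per library with mean ± SD, celastrol left and control right, each axis from 0. HOXC13-AS is higher with celastrol (1.24 to 2.76 against 0.105 to 0.701 CPM) where HOXC13 is lower (9.54 to 11.0 against 13.9 to 17.0 CPM).

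The partners and regulators of HOX genes were read from fixed lists. Their counts are to be set beside the shares of all genes called, 23.6% higher and 24.8% lower. Among 8 TALE homeodomain cofactors tested, 1 rose and 3 fell. PKNOX1 rose to 57.6 ± 0.751 CPM with celastrol, against 38.1 ± 0.929 in controls (log2 0.60 ± 0.076, adjusted p = 5.31e-06), and PBX3 fell to 27.0 ± 3.66 CPM, against 40.0 ± 4.62 (log2 -0.57 ± 0.11, adjusted p = 0.000360). MEIS3 fell by 0.53, and PKNOX2, with 5, 7 and 1 counts with celastrol and 20, 64 and 32 in controls, fell by 3.18 (SE 0.68). The well studied cofactors PBX2, MEIS1 and MEIS2 had log2 changes between -0.091 and 0.070 and adjusted p-values of 0.484 to 0.639.

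Of 15 activating regulators tested 4 rose and 2 fell, against 23.6% and 24.8% of all genes, with a median log2 change of 0.0071. KAT6B, a histone acetyltransferase, rose by 0.70, WDR5 by 0.31 and BRPF1 by 0.29, and KMT2A itself was not called (log2 0.090 ± 0.057, adjusted p = 0.203). Of 23 Polycomb genes 10 rose and 6 fell (median 0.18), among them BMI1 (log2 0.59), CBX8 (0.49) and PCGF1 (-0.49), and the catalytic EZH2 was not called (0.18 ± 0.086, adjusted p = 0.0927). Of 9 boundary and cohesin genes 6 rose (median 0.28) and none was called lower, while 23.6% of all genes rose and 24.8% fell. DESeq2 and limma-voom also called none lower, and 1 was lower at an unadjusted p under 0.05 in edgeR. In each of 5 alternatives 1 gene was called lower: upper-quartile factors, the filter at 10 CPM, the replicate block, without control replicate 1, and without it and celastrol replicate 2. STAG1, a cohesin subunit, rose to 90.2 ± 3.27 CPM with celastrol, against 44.4 ± 8.63 in controls (log2 1.02 ± 0.10, adjusted p = 1.41e-06), STAG2 rose by 0.38, SMC1A rose by 0.35, and CTCF, which bounds domains within HOX clusters, rose by 0.35 (adjusted p = 0.000515).

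Retinoic acid is a classical inducer of 3′ HOX genes. Of 11 genes of its pathway tested, 1 rose, 5 fell and 5 were not called (median -0.35). Among all genes, 23.6% rose and 24.8% fell. ALDH1A3, which makes retinoic acid, had 59.6, 73.8 and 59.7 CPM with celastrol and 166, 199 and 188 CPM in controls. It fell with a wide gap between groups (log2 -1.52 ± 0.089, adjusted p = 3.34e-09). RARB, a receptor that is itself a retinoic acid target, had 3.39, 4.86 and 3.30 CPM with celastrol and 9.36, 11.6 and 12.3 CPM in controls and fell (log2 -1.52 ± 0.18, adjusted p = 2.56e-06). CRABP2, a retinoic acid binding protein, fell by 0.70. These falls stood beside lower HOXD1 and HOTAIRM1 and higher HOXB2 at the 3′ ends of the clusters. HOXA2, HOXA3, HOXB3 and HOXD3, also near those ends, were not called. Whether the falls and the HOX changes are connected was not tested. EVX1 and EVX2, the homeobox genes beyond the 5′ ends of HOXA and HOXD, had 0 to 8 counts and were not tested.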

How the data were processed

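Per the labels' protocols, poly(A) RNA of 6 wells of 143B cells was sequenced from both ends on a NovaSeq instrument with a dUTP protocol that marks the strand. Per the submitters' processing notes, the build was hg38 and the tools were edgeR, DESeq2, StringTie 2.1.6, HISAT2 2.2.1 and cutadapt 1.9. Which annotation release was used, how reads were counted and whether by strand are not given in the sources used here. Read counts per gene were deposited by the authors as whole numbers without normalization, and the deposited FPKM table divides these counts by gene length and library total. FPKM served for levels between genes and counts for tests.

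Genes were kept with filterByExpr (15387 of 22481), scaled by TMM and tested between 3 celastrol and 3 control libraries by edgeR's quasi-likelihood test (edgeR 4.0.16, R 4.3.3) with Benjamini-Hochberg adjustment over all genes tested. Genes were called at an adjusted p under 0.05, and all adjusted p-values are from this test unless another tool is named. The SE is the absolute log2 fold change over the square root of F. CPM values are scaled by TMM, and group values are mean ± SD with n = 3. Limits from 3 counts cover counting error only, since reads carry no molecular identifiers. The test was also run on simulated counts with 200 changed genes and a common dispersion for all genes. In these data 7449 genes were called, so that run does not measure the rate of false calls here. Libraries held 38.4 to 39.5 M counts. For every pair of libraries of a group, chi-square over its degrees of freedom was 6.64 to 22.1, above sampling noise, so each counted as 1 replicate. Other scalings, other filters and other tools were tried (DESeq2 1.42.0, limma 3.58.1), with each library left out, a replicate block, and gene lengths of GENCODE release 29, the last added after seeing the data.

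All HOX genes enter the totals, shares and counts. Of the genes in these totals, 1 HOX gene and 1 cofactor are not reported here on their own. From the other lists, up to 3 called genes with the largest absolute change were named, plus PBX2, PBX3, MEIS1, MEIS2, KMT2A, EZH2 and CTCF. MEIS3, HOXC-AS1, HOTAIR, HAGLR and the antisense RNAs given beside a HOX gene were picked with their values in view. The members and lists were chosen with earlier results of these data known. Coordinates and promoters are those of RefSeq on GRCh38.p14, which is the hg38 assembly with later patches, matched by NCBI gene ID (38 of 38 genes), and exon overlaps are those of GENCODE release 29.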

Additional observations from a re-analysis of the deposited data

How the results depend on the processing

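Of the 15 called HOX genes reported, 10 kept their call in every alternative in which they were tested, and none changed direction. The 5 that lost it in at least 1 were HOXA11, HOXA13, HOXC10, HOXC11 and HOXD10, and the cause was not tested. Besides the omissions given above, HOXC10 lost it with limma on log2(FPKM + 1) and log2(FPKM + 0.1) (adjusted p = 0.0586 and 0.0530), HOXA13 without celastrol replicate 2 and control replicate 1 together (0.168), and HOXD10 with library size alone (0.0538). HOX genes called higher numbered 7, and 6 to 9 with 1 library left out. Those called lower numbered 9, and 5 to 7 with 1 library left out, with 5 without celastrol replicate 1 or without control replicate 3. With at least 10 CPM in 3 libraries, 5 HOX genes were higher and 5 lower, and 3 of groups 6 and 7 were higher, since 19 HOX genes were then tested. Over all genes, library size alone in place of TMM gave 4170 higher and 3382 lower.

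The replicate numbers do not pair the wells by the labels, and same-numbered libraries deviated together only weakly (correlations of 0.0582, 0.0549 and 0.0341 for replicates 1, 2 and 3), although each library correlated best with its own number. With the replicate block, 7 HOX genes were higher and 9 lower, as without it, HOXC-AS1 lost its call, and 3831 of all genes were higher and 3928 lower.

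At 5 FPKM in place of 1 FPKM, 14 HOX genes passed in controls. With CPM in place of FPKM, the shares of HOX expression with celastrol were 17.4% for HOXA, 49.8% for HOXB, 20.7% for HOXC and 12.2% for HOXD, and in controls 22.4% for HOXC and 13.2% for HOXD. With GENCODE 29 lengths they were 16.7%, 45.3%, 21.3% and 16.6% with celastrol, and 16.0%, 41.7%, 24.2% and 18.1% in controls. For anterior, central and posterior groups, CPM gave 20.1%, 39.2% and 40.7% with celastrol, and 18.9% and 36.5% for anterior and central groups in controls. Cutting the classes at groups 1 to 4, 5 to 9 and 10 to 13 gave 27.7%, 51.2% and 21.1% with celastrol, and 31.8%, 42.8% and 25.4% in controls, which turned the direction of the anterior groups.

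Genes with no call were the only ones to change sign (log2 fold changes). HOXC5 was 0.022 with library size alone, and 0.014 and 0.018 with limma on log2(FPKM + 1) and log2(FPKM + 0.1). HOXD9 was 0.018, 0.023 and 0.026 under the same 3 settings, and HOXD11 was 0.0064 and 0.013 with limma. Without celastrol replicate 2 and control replicate 1 together, HOXD9 was 0.048, HOXA2 -0.080, HOXB13 -0.058 and MEIS2 -0.00026. With 1 library left out, HOXA2 ran from -0.082 to 0.14, HOXA10 from -0.18 to 0.014, HOXB5 from -0.017 to 0.31, HOXB8 from -0.00013 to 0.36, HOXC5 from -0.083 to 0.069, HOXD9 from -0.13 to 0.055, HOXD11 from -0.18 to 0.078 and MEIS1 from -0.18 to 0.013.

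Depth limits the genes with few counts, HOXA6, HOXD1, HOXD3, HOXD10 and HOXD12, and HOXC12 was not tested. Wells of 1 plate bound what the spread covers, and antisense or shared exons bound the counts of HOXA4, HOXA6, HOXA7, HOXC4, HOXC5, HOXC6, HOXD1, HOXD3 and HOXD4, among others.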
